A study of Mus musculus with 16 samples.

Results

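Transcript levels in the gastrocnemius, a calf muscle, were compared between Il13-/- (KO) and wild type (WT) mice that had both been endurance trained. The comparison used 4 KO and 4 WT libraries of the 16 in the series, each from a different male C57Bl6/J mouse aged 20 weeks, and training was 5 weeks of running on a treadmill every day. The other 8 libraries, 4 KO and 4 WT from untrained mice of the same strain, sex and age, are given beside them as a second, separate genotype comparison. All genes with at least 1 RPKM (a read count divided by gene length and by library size) in at least 4 of the 16 libraries were included, which is 10171 of the 23440 genes in the table. Il13 lies on chromosome 11, so the 899 tested genes of that chromosome and the 9272 tested genes elsewhere are described separately. The labels do not say how the knockout was made, what part of Il13 is deleted, whether WT mice were littermates or how often the line was backcrossed, and they give no sequencing batch or date.

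Interleukin-13 is a type 2 cytokine made by innate lymphoid cells, T helper cells and other immune cells. It signals through receptors built from Il4ra with Il13ra1, which activate Stat6 and Stat3, while Il13ra2 binds the cytokine separately. In muscle, endurance exercise is known to raise mitochondrial content, fatty acid oxidation and the proteins of oxidative fibres. A targeted allele moved onto another background carries with it a stretch of the donor strain's chromosome around the target, in which neighbouring genes can differ by sequence from those of the control mice. Whether such a stretch exists here was not tested.

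The 8 trained libraries held 16307025 to 20074677 reads, as solved from the steps between low RPKM values. The genes in the table took 76.7% ± 1.27 of these totals in KO and 78.6% ± 3.51 in WT (SD, n = 4 each; two-sided exact permutation p = 0.4, where 4 against 4 can go no lower than 0.0286). In the WT library numbered 1 this share was 83.5%, and on the first principal component of the 8 libraries, which held 34.2% of the variance, it sat at -26.1 while KO 1 and KO 2 sat at 14.3 and 18.3 and the other 5 between -2.53 and 0.3. Summed markers of skeletal muscle fibres were alike in range, from 66951 to 73326 RPKM in trained KO and from 66562 to 76886 RPKM in trained WT libraries. Il13 itself (mm10, chr11:53631323-53634702) was at 0 reads in all 4 trained WT libraries, which allows up to 3 reads in each, and at 0 or 1 read in the trained KO libraries. At this depth the genotype labels could not be checked on the transcript. Il4 and Il5, its neighbours, had 0 or 1 read in every library, and Il13ra2 was listed at 0 in all 16. Reads above 0 for Il13, Il4 and Il5 are solved values, the fewest that fit the listed RPKM.

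In trained mice 9 genes differed by genotype at an adjusted p under 0.05 (limma, Benjamini-Hochberg over all tested genes), which is 0.0885% of those tested. Of these, 7 were lower in KO (0.0688%) and 2 were higher (0.0197%). Chromosome 11 held 5 of them, 0.556% of its tested genes, and the other chromosomes 4, or 0.0431% of theirs. In untrained mice 5 genes passed (0.0492%), all on chromosome 11. The difference between the genotype differences of trained and untrained mice passed for no gene (0.0%), with 854 genes at an unadjusted p under 0.05 where chance gives 508.6.

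Below that threshold, many small differences in trained muscle pointed the same way. The median log2 difference (KO minus WT, on the log2(RPKM + 0.1) scale) over all tested genes was -0.05, and 65.2% of genes lay below 0, against a median of 0.00 and 48.6% in untrained mice. An unadjusted p under 0.05 was reached by 981 genes that were lower in KO (9.65%) and 428 that were higher (4.21%). All 4 KO values lay below all 4 WT values for 596 genes (5.86%) and above them for 267 (2.63%). Without the WT library numbered 1 the median was -0.02, 54.9% of genes lay below 0, and 460 lower and 309 higher genes reached the unadjusted p, and without KO 2 both directions together held 874 genes in place of 1409. The excess of lower genes also depended on scaling, with 659 lower and 783 higher genes after quantile normalization and 823 lower and 628 higher after centring each library on its median gene. Leaving out 1 library also loosens the criterion of no overlap, so that such a count, here and in the lists below, can only stay or rise. KO lay below WT in 1036 genes without KO 4, 989 without WT 2, 977 without WT 4 and 896 without KO 3.

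The largest difference on chromosome 11 was in Lyrm7, which encodes a mitochondrial chaperone needed for the assembly of respiratory complex III (chr11:54839289-54860591). Its 4 trained WT libraries measured 3.32, 2.48, 3.22 and 3.52 RPKM, and the 4 trained KO libraries 1.23, 1.24, 1.33 and 1.03 RPKM. The groups did not overlap, and the KO mean of 1.21 ± 0.127 stood against 3.14 ± 0.456 RPKM in WT (mean ± SD, n = 4). The log2 difference was -1.30 (SE 0.14, adjusted p = 0.000455), which puts KO at 40.6% of the WT level. In untrained mice the KO libraries measured 1.25, 1.33, 1.53 and 0.957 RPKM and the WT libraries 2.59, 3.41, 2.96 and 3.17 RPKM, a log2 difference of -1.21 (adjusted p = 0.0013). The trained and untrained differences of Lyrm7 were 0.09 apart on the log2 scale, with a 95% interval from -0.51 to 0.32 for trained minus untrained.

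Anxa6 and Fam114a2 were the other chromosome 11 genes that fell. Anxa6, a calcium-dependent membrane-binding annexin (chr11:54978962-55033471), measured 81.1, 70, 70.3 and 71.1 RPKM in trained WT and 50, 51.5, 53.5 and 51.7 RPKM in trained KO libraries. The log2 difference was -0.50 (SE 0.07, adjusted p = 0.00345), or 70.8% of the WT level, and it was -0.37 in untrained mice (adjusted p = 0.0482). Fam114a2 (chr11:57482990-57518644) measured 19.8, 18.7, 19.4 and 20.3 RPKM in trained WT and 14.1, 14.3, 15.6 and 16.1 RPKM in trained KO libraries. Its log2 difference was -0.38 (SE 0.06, adjusted p = 0.0224) in trained and -0.45 (adjusted p = 0.00399) in untrained mice. For both genes all 4 KO values lay below all 4 WT values, in trained and in untrained mice alike.

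Tnip1 and Acsl6 were the only genes that passed with a higher level in KO. Tnip1, a partner of the deubiquitinase A20 that restrains NF-kB signalling (chr11:54910787-54962940), measured 15.7, 14.9, 15.5 and 17.5 RPKM in trained KO and 13.4, 10.7, 10.5 and 10.8 RPKM in trained WT libraries. The log2 difference was 0.48 (SE 0.08, adjusted p = 0.0224), or 139.8% of the WT level, and 0.49 (adjusted p = 0.0176) in untrained mice. Acsl6, which activates long-chain fatty acids to acyl-CoA (chr11:54303824-54361539), measured 13.3, 12.8, 12.4 and 13.0 RPKM in trained KO and 10, 9.71, 8.09 and 9.14 RPKM in trained WT libraries. Its log2 difference was 0.48 (SE 0.08, adjusted p = 0.0229) in trained and 0.33 in untrained mice, where it did not pass (adjusted p = 0.655), although the untrained groups did not overlap either. An exon of Acsl6 overlaps Gm12224 on the opposite strand in GENCODE M21, and the sources used here do not say whether the counting used strand.

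**Figure D1:**
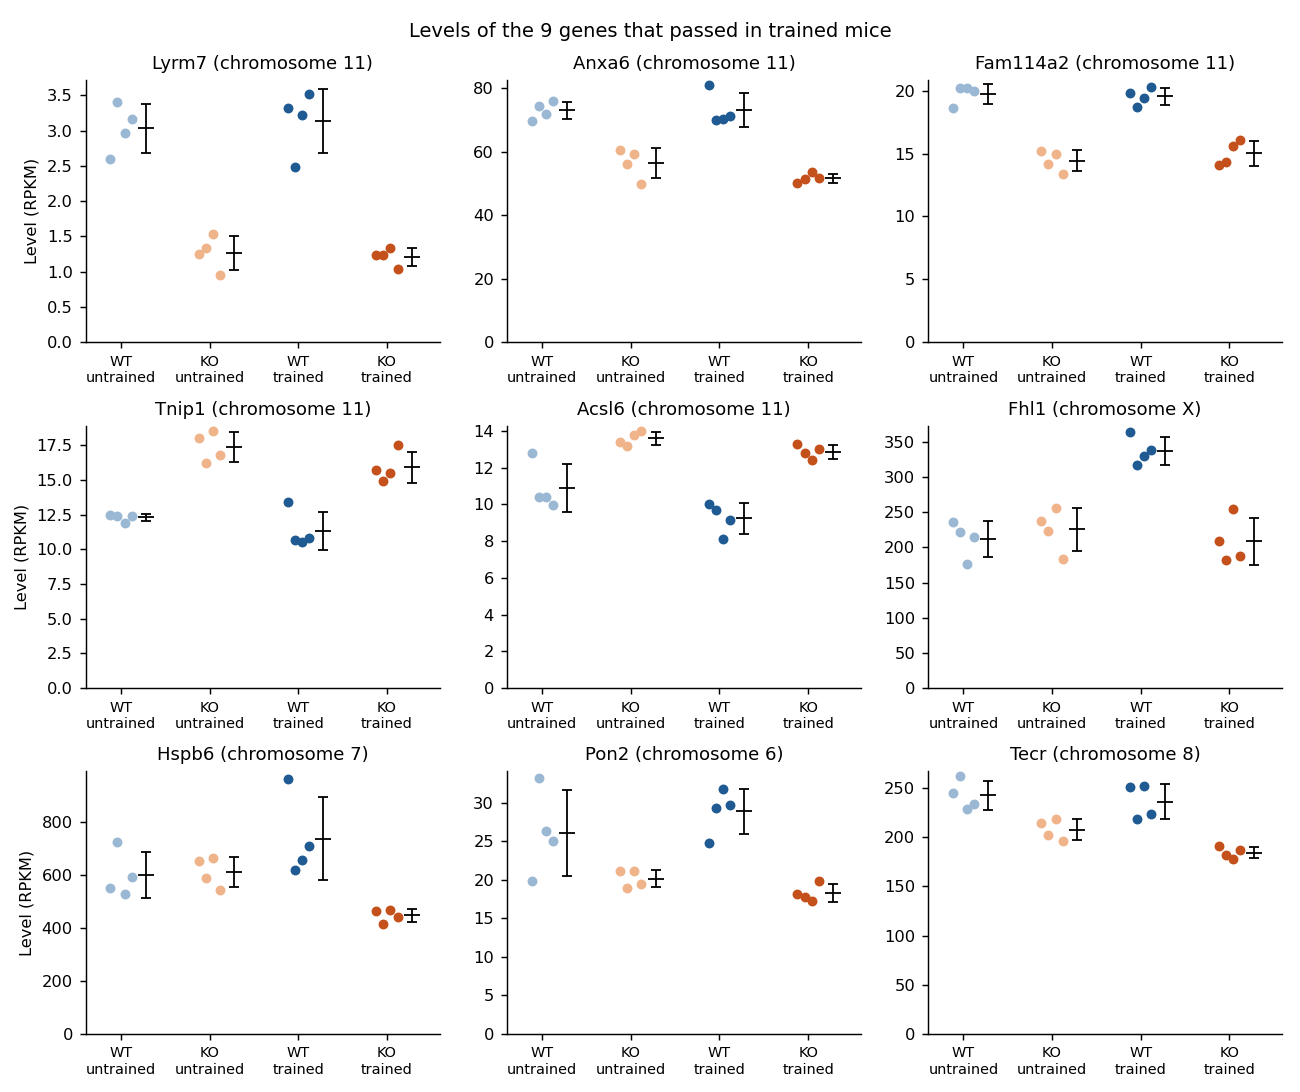
Level in RPKM of the 9 genes that passed in trained mice, with 1 point per library in the 4 groups and the mean ± SD (n = 4) beside the points; every vertical axis starts at 0. The 5 chromosome 11 genes separate KO from WT in both training states, while Fhl1 and Hspb6 separate them in trained mice and overlap in untrained mice.

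The promoters of these 2 higher genes are shown for the motifs they hold. RefSeq windows (GRCm38.p6, from 250 bases before to 50 after an annotated start, of which the 250 before it are printed) were matched by symbol for 7 of the 9 genes that passed, all except Anxa6 and Fam114a2, and for 7680 of the tested genes. Searched on both strands were TTCCNGGAA, a STAT-type palindrome, AAGGTCA, the core of the site of oestrogen-related receptors, and TCAAGGTCA, its extended form, which contains the core. The promoters printed were chosen for holding a match. The window of Tnip1 (chr11:54962941-54963190, minus strand) holds the first, and 1 of 3 windows of Acsl6 (chr11:54303574-54303823, plus strand) holds the extended form as its reverse complement. Both are printed 5′ to 3′ with the match to TTCCNGGAA or TCAAGGTCA in capitals, which begins 199 bases before the start in Tnip1 and 167 bases before it in Acsl6.
Tnip1: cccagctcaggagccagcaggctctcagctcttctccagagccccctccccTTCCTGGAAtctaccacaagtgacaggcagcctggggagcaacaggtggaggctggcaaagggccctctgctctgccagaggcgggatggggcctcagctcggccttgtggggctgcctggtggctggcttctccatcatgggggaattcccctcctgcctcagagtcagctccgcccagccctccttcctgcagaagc
Acsl6: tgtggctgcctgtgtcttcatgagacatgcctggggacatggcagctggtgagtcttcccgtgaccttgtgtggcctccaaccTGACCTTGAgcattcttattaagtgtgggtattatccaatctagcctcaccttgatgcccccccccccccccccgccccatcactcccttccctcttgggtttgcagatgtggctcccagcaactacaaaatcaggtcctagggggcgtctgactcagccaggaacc
Of all 32851 windows in the table, 1.15% hold TTCCNGGAA, 4.72% hold AAGGTCA and 0.423% hold TCAAGGTCA. Of the 9886 windows of tested genes, the shares are 1.25%, 3.21% and 0.263% in the same order. No match to any of the 3 was found in the windows of Lyrm7, Fhl1, Hspb6, Pon2 or Tecr. The printed Acsl6 window also holds AAGGTCA outside the capitals, as its reverse complement in lower case. A match describes the letters only, and no binding was measured.

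The 5 chromosome 11 genes that passed lie between 0.70 and 3.87 Mb from Il13, measured between gene centres, and all on its higher-coordinate side. Of the 35 genes tested from 0 to 5 Mb on that side, 5 passed in trained and 4 in untrained mice. Of the 49 tested within 5 Mb on the other side, none passed in either state, and 4 were at an unadjusted p under 0.05 in trained mice. None of the other tested genes of the chromosome passed in trained mice. A sixth gene on the higher-coordinate side, Cnot8, a deadenylase of the CCR4-NOT complex at 4.48 Mb, did not pass. It measured 12.8 ± 0.685 RPKM in trained KO and 15.7 ± 0.853 RPKM in trained WT, a log2 difference of -0.30 (adjusted p = 0.204), and -0.25 in untrained mice, without overlap in either state. Cnot8 was chosen after its values were seen, as were the 5 Mb limits.

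**Figure D2:**
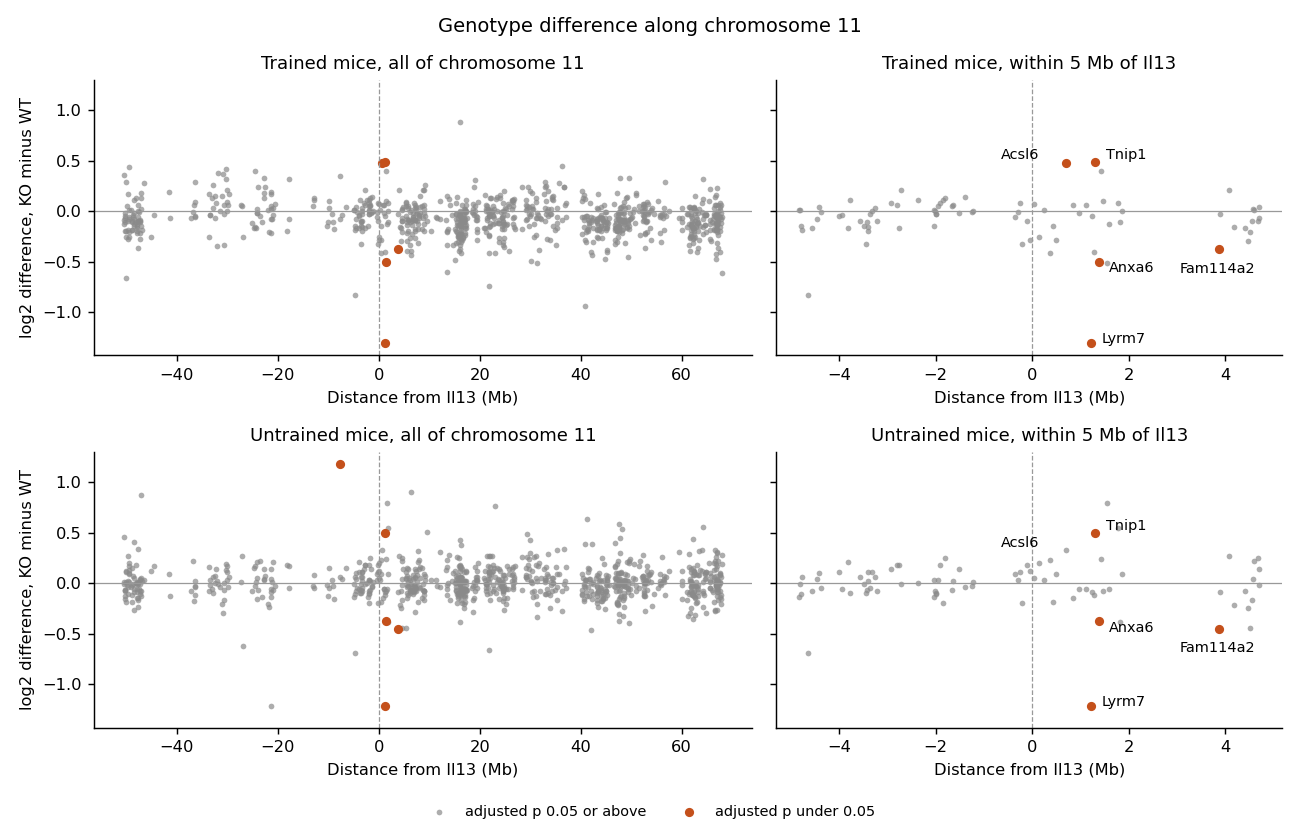
log2 difference (KO minus WT) of each tested gene on chromosome 11 against its distance in Mb from Il13, for trained mice above and untrained mice below, with the whole chromosome on the left and 5 Mb on each side on the right; filled orange points have an adjusted p under 0.05. In trained mice the 5 orange points lie between 0.70 and 3.87 Mb on the higher-coordinate side.

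The genes closest to Il13 differed less. Rad50, a DNA repair protein whose gene borders the cytokine cluster, measured 1.47 ± 0.16 RPKM in trained KO and 1.38 ± 0.0623 in trained WT (log2 0.07, adjusted p = 0.81). Kif3a, a kinesin motor subunit, had 0.974 ± 0.0999 and 1.2 ± 0.124 RPKM (log2 -0.28, adjusted p = 0.329), and its trained groups did not overlap while its untrained groups did. Irf1, an interferon-regulated transcription factor, had a log2 difference of -0.25 (adjusted p = 0.472). In the list of 48 neighbours of Il13, which was compiled with earlier results of these data known, 34 were tested and 4 passed: Lyrm7, Anxa6, Tnip1 and Acsl6. The median log2 difference of those 34 was -0.02.

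Beyond this interval no gene of chromosome 11 passed in trained mice. The one nearest to passing among those lower in KO was Myh2, the myosin heavy chain of type 2A fibres, 13.6 Mb from Il13. It measured 399, 352, 562 and 375 RPKM in trained KO and 716, 526, 637 and 650.3 RPKM in trained WT libraries, so that the third KO library lay inside the WT range (log2 -0.60, SE 0.13, adjusted p = 0.132). Mdh1, cytosolic malate dehydrogenase, followed with 264 ± 18.8 against 334 ± 24.2 RPKM (log2 -0.34, adjusted p = 0.193). On the higher side Smek2, Xpo1, a nuclear export receptor, and Lgalsl had log2 differences of 0.40, 0.41 and 0.26 with adjusted p of 0.20 for each. Exons of Myh2 and Mdh1 overlap a gene on the opposite strand.

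A total of 23 genes in the genome separated KO from WT without overlap, in the same direction, in trained and in untrained mice, which are different animals. Chromosome 11 held 6 of them, 0.667% of its tested genes, and these were the 5 that passed and Cnot8. The other 17 made up 0.183% of the genes tested elsewhere. Taken singly and in either direction, 8.52% of the genes elsewhere did not overlap in trained and 3.86% in untrained mice. On chromosome 11 these shares were 8.12% and 4.89%. Whether 17 is more than such shares alone would give was not tested. The 17 included Tecr, Sharpin, a component of the linear ubiquitin ligase (log2 -0.31 in trained and -0.16 in untrained mice), Nfu1, an iron-sulphur cluster carrier of mitochondria (-0.26 and -0.20), and Ndufb4, a complex I subunit (-0.17 and -0.16). Higher in both were Mospd2 (0.33 and 0.51) and Sh3bgrl (0.42 and 0.21). Apart from Tecr, which passed in trained mice, none of the 17 passed in either state. Except for Tecr, those named here were chosen after their values were seen.

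Thg1l was the fifth gene that passed in untrained mice, and it lies on the lower-coordinate side of Il13, more than 5 Mb from it. Its level in untrained KO was 3.49 ± 0.606 RPKM against 1.48 ± 0.228 in WT (log2 1.17, adjusted p = 0.00181). In trained mice it was 2.52 ± 0.357 against 1.97 ± 0.303 RPKM, with overlap (log2 0.34, adjusted p = 0.315). The difference between both states did not pass (log2 -0.83, adjusted p = 0.526). Thg1l was named after its values were seen.

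Off chromosome 11 the 4 genes that passed were all lower in trained KO muscle. Fhl1, a LIM-domain protein of the sarcomere (chrX:56731787-56793346), measured 364, 317, 330.0 and 339 RPKM in trained WT and 209, 182, 255 and 188 RPKM in trained KO libraries. Every KO value lay below every WT value, and the mean was 208 ± 33 against 337 ± 19.8 RPKM (log2 -0.71, SE 0.11, adjusted p = 0.0224). Untrained KO and WT muscle held 226 ± 30.9 and 213 ± 25.7 RPKM, so that trained WT was the one group that stood above the other 3. The trained difference minus the untrained one was -0.79 (95% interval -1.13 to -0.45), with an adjusted p of 0.526 over all genes.

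Hspb6, a small heat shock protein of muscle (chr7:30553302-30555439), measured 464, 415, 466 and 440.0 RPKM in trained KO and 962, 619, 655 and 708 RPKM in trained WT libraries. Its log2 difference was -0.70 (SE 0.12, adjusted p = 0.0319), or 61.5% of the WT level, while untrained KO and WT had 610.3 ± 55.9 and 598 ± 88.0 RPKM. The first WT library was the highest of all 16, and without it the log2 difference was -0.57 (adjusted p = 0.0418). Exons of Hspb6 overlap Gm38670 on the same strand and Lin37 and Proser3 on the opposite strand, so its own level is uncertain.

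Pon2, a lactonase of intracellular membranes with antioxidant activity (chr6:5264624-5298373), measured 18.2, 17.8, 17.3 and 19.9 RPKM in trained KO and 24.8, 29.3, 31.8 and 29.7 RPKM in trained WT libraries (log2 -0.65, SE 0.12, adjusted p = 0.0324). In untrained mice its KO values lay between 18.9 and 21.2 RPKM and its WT values between 19.8 and 33.3 RPKM (log2 -0.35, adjusted p = 0.78). Tecr, the reductase of the last step of very long chain fatty acid elongation (chr8:83571698-83594491), measured 191, 182, 178 and 187 RPKM in trained KO and 251, 219, 252 and 224 RPKM in trained WT libraries (log2 -0.35, SE 0.06, adjusted p = 0.0324). Its untrained groups did not overlap either, at 208 ± 10.8 against 243 ± 14.7 RPKM (log2 -0.22, adjusted p = 0.78). Just outside the threshold stood Ndufa12, a complex I subunit (log2 -0.35, adjusted p = 0.125), the zinc finger factor Klf5 (-0.90, adjusted p = 0.127) and Mlip, a lamin-interacting protein of muscle (-0.31, adjusted p = 0.127), of which Klf5 and Mlip were picked once their values were known.

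Lyrm7 and Anxa6 passed when any 1 of the 8 trained libraries was left out. They were the only ones to pass without WT 3, without WT 4 or without KO 1, which left 2 genes each. Without KO 2 there were 3 genes, with Tnip1, and without KO 4 there were 3, with Fam114a2. None of the 4 genes off chromosome 11 passed in any of those 5 fits. Without WT 1, Fhl1 (adjusted p = 0.104) and Tecr did not pass, without WT 2 Tnip1 and Pon2 did not, and without KO 3 Hspb6, Pon2 and Tecr did not. A fit of the 8 trained libraries alone called Lyrm7, Anxa6 and Pon2.

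Off chromosome 11 no gene passed with a higher level in KO. The smallest p there belonged to Oaz1, the antizyme that limits polyamine synthesis, with 85.0, 73.7, 73.7 and 69.8 RPKM in trained KO and 41.7, 62.8, 51.0 and 54.8 RPKM in trained WT libraries. The groups did not overlap (log2 0.53, adjusted p = 0.132), and untrained KO and WT had 56.5 ± 8.6 and 54.7 ± 3.66 RPKM. An exon of Oaz1 overlaps Mir1982. Lin7c, a scaffold of cell junctions (log2 0.34, adjusted p = 0.145), and Pgm2l1, a glucose-1,6-bisphosphate synthase (0.41, adjusted p = 0.149), were next, both without overlap.

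Gene groups of muscle are described next by counts and medians, beside those of all tested genes. Their lists were compiled with earlier results of these data known, and no test was run on a list. In bulk muscle, fewer fibres or cells of a type and less RNA per cell cannot be told apart.

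Genes of slow and oxidative fibres had the lowest median. All 19 tested members of 21 lay below 0 in trained mice, with a median log2 difference of -0.68 against -0.05 for all genes. Fhl1 was the 1 member that passed. In 5 members (26.3%, against 5.86% of all genes) KO lay wholly below WT: Fhl1, Myoz2, a Z-disc protein (47.7 ± 6.71 against 76.3 ± 15.3 RPKM, adjusted p = 0.151), Actn2, the Z-disc alpha-actinin (239 ± 33.1 against 350.2 ± 50.6 RPKM, adjusted p = 0.174), the oxygen store myoglobin, Mb (1670.2 ± 225 against 2354 ± 407 RPKM, adjusted p = 0.232), and the creatine kinase of muscle mitochondria, Ckmt2 (log2 -0.36), named here for its place in that count. In untrained mice the median was 0.16, with 17 of 19 above 0.

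Within this list the contractile genes of slow type 1 fibres had the largest log2 differences and the widest spread. Myh7, their myosin heavy chain, measured 21.3, 13.3, 68.4 and 8.24 RPKM in trained KO and 52.4, 47.9, 66.7 and 38.1 RPKM in trained WT libraries (log2 -1.32, SE 0.79, adjusted p = 0.463). The third KO library was the highest of the 8, and the other 3 were lower than every WT library. Tnni1, slow troponin I, also had its highest KO value in the third library and the other 3 below every WT library, with 14.9, 9.38, 49.5 and 8.05 RPKM in trained KO and 53.8, 41.8, 53.2 and 34 RPKM in trained WT (log2 -1.54, adjusted p = 0.384). Both were named after their values were seen. Without KO 3, 16 of the 19 members lay wholly below WT (8.81% of all genes then), and Myh2 passed (log2 -0.74, limma adjusted p = 0.00614). With any other trained library left out Myh2 did not pass, at an adjusted p from 0.0634 to 0.508. Without WT 4, 8 of the 19 members lay wholly below WT (9.61% of all genes then). The list median ran from -0.81 to -0.54 when 1 trained library was left out and was -0.59 after quantile normalization.

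**Figure D3:**
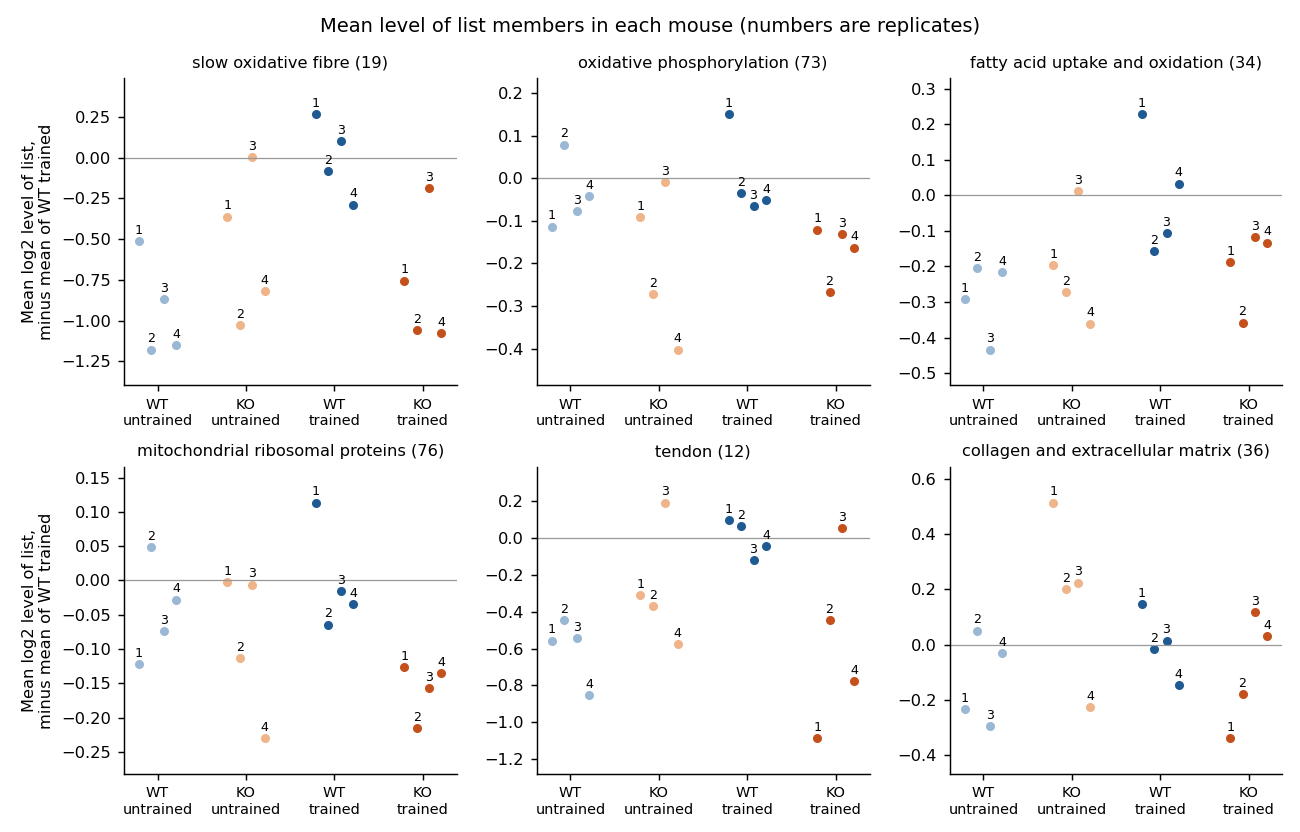
Mean log2 level of the tested members of 6 gene lists (number tested in brackets) in each of the 16 libraries, relative to the mean of the trained WT libraries, with the replicate number above each point. For slow oxidative fibre genes, trained KO libraries 1, 2 and 4 lie near the untrained groups, and KO 3 lies among the trained WT libraries; oxidative phosphorylation and mitochondrial ribosomal genes place all 4 trained KO libraries below all 4 trained WT libraries.

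Fast glycolytic fibre genes were near 0 in trained mice. Of 20 tested, 9 lay below 0 with a median of 0.01, and none passed. In untrained mice 18 of the 20 lay below 0 with a median of -0.13. There KO lay wholly below WT in 9, where 3.95% of all genes did not overlap in either direction. For Actn3, the alpha-actinin of fast fibres, the log2 difference was 0.18 (adjusted p = 0.302), and for Myh4, the type 2B myosin heavy chain, it was 0.15 (adjusted p = 0.375). In 1 member of the 20, Tpm2, beta-tropomyosin, the KO values lay wholly below WT (log2 -0.38, adjusted p = 0.281), a share near the 5.86% of all genes. Glycolysis and glycogen genes had a median of -0.05 over 33. Ldhb, the lactate dehydrogenase subunit of oxidative tissue, was their lowest, with 122 ± 26.4 RPKM in trained KO against 189 ± 37.3 in trained WT (log2 -0.63, adjusted p = 0.20).

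Oxidative phosphorylation genes differed less in size but more evenly. Of 73 tested, 70 lay below 0 with a median of -0.18, none passed, and in 41 (56.2%, against 5.86% of all genes) the KO values lay wholly below WT. By complex, these were 21 of 37 for complex I, 6 of 9 for complex III, 6 of 11 for complex IV and 8 of 15 for complex V. Ndufa12 measured 257, 232, 240.4 and 256 RPKM in trained KO and 356, 318, 283 and 305 RPKM in trained WT libraries. Ndufv2, of complex I, had 177 ± 7.48 against 206 ± 9.88 RPKM (log2 -0.22, adjusted p = 0.20). In complex III, Uqcrb had 430.3 ± 6.92 against 489.7 ± 18.1 RPKM (log2 -0.19, adjusted p = 0.20), and Uqcrc2 219 ± 11 against 251 ± 6.49 RPKM (log2 -0.20, adjusted p = 0.201). In untrained mice all 73 lay below 0 with a median of -0.12, and in 2 the groups did not overlap.

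The size of this difference depended on scaling. After quantile normalization the median of the oxidative phosphorylation list was -0.06, 54 of 73 members lay below 0, and Ndufa12 passed, while the median of all genes was -0.0013. By complex, the medians were then -0.08 for I, -0.07 for III, -0.08 for IV and 0.01 for V. In complex V 7 of 15 members lay below 0. Centring each library on its median gene, an alternative chosen after seeing the data, gave a list median of -0.14 and 68 of 73 below 0. Without WT 1, whose list level was the highest of the 16 libraries, the median was -0.13 and 42 members (57.5%, against 6.36% of all genes) lay wholly below WT. One member stood apart from the rest: Ndufs5, at 0 to 9.47 RPKM over the 16 libraries, had a log2 difference of 0.47 in trained and -3.18 in untrained mice, neither of which passed (adjusted p = 0.888 and 0.78). Ndufs5 was named after its values were seen.

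Other mitochondrial groups lay on the same side. Among 23 genes of pyruvate dehydrogenase and the citric acid cycle, 22 lay below 0 with a median of -0.16, and in 13 the KO values lay wholly below WT (56.5%, against 5.86% of all genes). Cs, citrate synthase, had 294 ± 11.7 RPKM in trained KO against 339.9 ± 17.4 in trained WT (log2 -0.21, adjusted p = 0.204), and Ogdh, of the oxoglutarate dehydrogenase complex, a log2 difference of -0.28 (adjusted p = 0.20). Of 76 mitochondrial ribosomal protein genes, 73 lay below 0 with a median of -0.17, and in 22 KO lay wholly below WT, or in 36 without KO 1 and 34 without WT 2 (28.9%, 47.4% and 44.7%, against 5.86%, 8.16% and 9.72% of all genes). Mrpl42 came nearest to passing, with 229, 208, 217 and 223 RPKM in trained KO and 278, 259, 258 and 251 RPKM in trained WT (log2 -0.25, adjusted p = 0.127). None of these genes passed. The 76 tested genes of the cytosolic ribosome had a median of -0.05, that of all genes. In untrained mice their median was -0.12, 75 lay below 0, and in 16 KO lay wholly below WT.

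Of 34 genes of fatty acid uptake and oxidation, 31 lay below 0 with a median of -0.23, and none passed. In 7 the KO values lay wholly below WT, and this number was 16 without WT 3 and 13 without KO 3 (20.6%, 47.1% and 38.2%, against 5.86%, 8.28% and 8.81% of all genes). Fabp3, the fatty acid carrier of heart and muscle, had the lowest log2 difference, with 849.8, 719, 976 and 883 RPKM in trained KO and 1671, 1121, 1030 and 1344 RPKM in trained WT (log2 -0.58, adjusted p = 0.201). Etfa, which passes electrons from acyl-CoA dehydrogenases to the respiratory chain, had 109.6 ± 7.15 against 132 ± 7.92 RPKM (log2 -0.27, adjusted p = 0.183). In untrained mice the same list had a median of 0.05 and 9 of 34 below 0. After quantile normalization the trained medians were -0.14 for fatty acid genes, -0.06 for the citric acid cycle and -0.10 for mitochondrial ribosomal proteins.

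**Figure D4:**
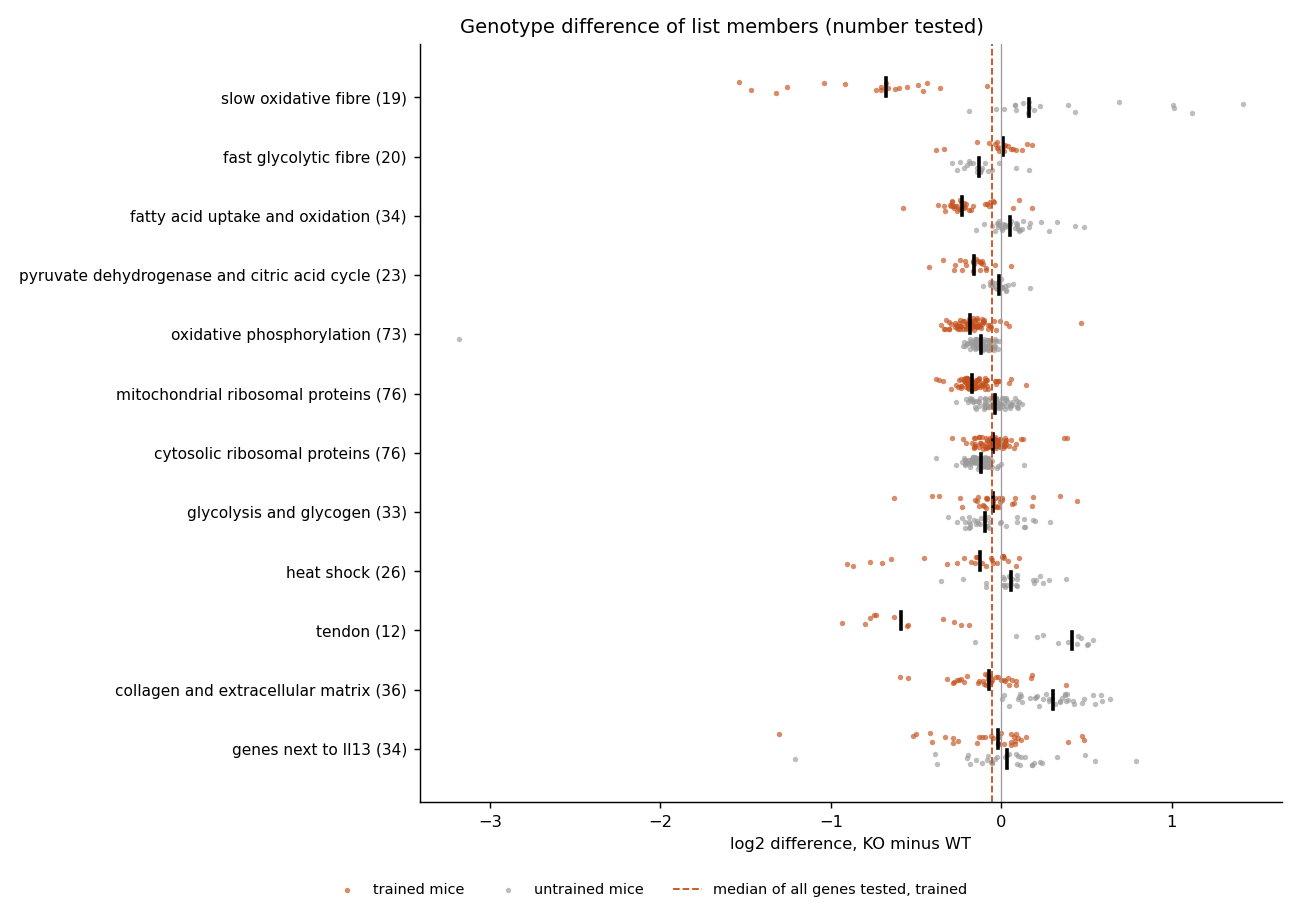
log2 difference (KO minus WT) of each tested member of 12 gene lists, in trained mice (orange) and untrained mice (grey), with a black bar at each median; the dashed line is the median of all tested genes in trained mice, -0.05. Slow oxidative fibre and tendon members lie left of 0 in trained mice and mostly right of it in untrained mice, while oxidative phosphorylation members lie left of 0 in both, except for 3 of 73 in trained mice.

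Regulators of mitochondrial content showed no gene that passed among 21 tested, with a median of -0.07. Esrrb, an oestrogen-related receptor, had 1.48 ± 0.274 RPKM in trained KO against 2.55 ± 0.563 in trained WT, without overlap (log2 -0.74, adjusted p = 0.193). Its relatives Esrrg and Esrra had log2 differences of -0.27 (adjusted p = 0.321) and -0.12 (adjusted p = 0.592). Ppargc1a, the coactivator PGC-1 alpha, measured 6.08 ± 1.32 against 5.64 ± 0.707 RPKM (log2 0.09, 95% interval -0.52 to 0.71, adjusted p = 0.905).

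The IL-13 and IL-4 signalling genes held no member that passed among 17 tested, with a median of -0.09 in trained and 0.14 in untrained mice. Stat3 measured 10.3, 10.4, 10.8 and 10.5 RPKM in trained KO and 13.1, 11.4, 11.4 and 12.4 RPKM in trained WT libraries, without overlap (log2 -0.20, SE 0.10, adjusted p = 0.381). Stat6 had 6.43 ± 0.285 against 7.1 ± 0.595 RPKM (log2 -0.14, adjusted p = 0.487). For the receptor chain Il4ra the log2 difference was 0.04 (adjusted p = 0.94), while Il13ra1 lay under the filter at 0.868 ± 0.247 in trained KO and 0.838 ± 0.195 RPKM in trained WT. Among 14 tested targets of IL-13 and genes of type 2 macrophages none passed. Exons of Stat3 and Stat5a, and of Stat6 and Nab2, overlap on opposite strands. Exons of Pon2, Mb, Fabp3, Uqcrb, Uqcrc2, Cryab, Myh7, Irf1, Il4ra, Esrra and Sh3bgrl also overlap another gene, so their own levels are uncertain to that extent.

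In the heat shock list Hspb6 was the 1 of 26 tested genes that passed, the median was -0.13, and in 7 the KO values lay wholly below WT, or in 11 without KO 2 (26.9% and 42.3%, against 5.86% and 6.61% of all genes). Cryab, the small heat shock protein alpha B crystallin, had 395 ± 50.6 RPKM in trained KO against 622 ± 105 in trained WT (log2 -0.65, adjusted p = 0.155). Hspb7 had 64.9 ± 9.48 against 113 ± 31 RPKM (log2 -0.77, adjusted p = 0.20), and Bag3, their co-chaperone, a log2 difference of -0.32 (adjusted p = 0.204). Among angiogenesis genes none of 17 passed. Vegfb, a growth factor of the VEGF family, had 59.0 ± 5.47 against 78.5 ± 15.2 RPKM (log2 -0.40, adjusted p = 0.213), and the VEGF receptor Kdr 8.13 ± 0.53 against 10.3 ± 1.01 RPKM (log2 -0.33, adjusted p = 0.324), both without overlap.

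Markers of other cell types were read in the same libraries. Tendon markers lay below 0 for 12 of 12 tested genes, with a median of -0.59 in trained and 0.42 in untrained mice, and none passed. Their summed level, over 14 genes of which none was at 0 throughout, ran from 111 to 251 RPKM in trained KO and from 233 to 296 RPKM in trained WT. Thbs4, a matrix protein of tendon and muscle, measured 27.4, 38.9, 48.3 and 37.7 RPKM in trained KO and 69.0, 49.9, 64.6 and 67.2 RPKM in trained WT libraries, without overlap (log2 -0.74, adjusted p = 0.145). Comp, a cartilage and tendon matrix protein, had 3.7, 5.37, 9.74 and 4.97 RPKM against 10.8, 8.81, 8.56 and 9.66 RPKM (log2 -0.75, adjusted p = 0.273). KO 3 was the highest KO library for both, as for the slow fibre genes, and without it Thbs4 passed (log2 -0.86, limma adjusted p = 0.0495). With any other trained library left out Thbs4 did not pass, at an adjusted p from 0.0649 to 0.508. The part of tendon tissue in the slow fibre differences was not tested.

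Endothelial markers lay below 0 for 12 of 13 genes with a median of -0.11, where 65.2% of all tested genes lay below 0. Without WT 1 it was 9 of 13 with a median of -0.06, against 54.9% of all genes. The endothelial sums ran from 123 to 136 RPKM in trained KO and from 132 to 171 RPKM in trained WT. Macrophage sums ran from 66.7 to 151 and from 86.7 to 129.6 RPKM, and 9 of 12 tested genes lay below 0. Collagen and extracellular matrix genes had a median of -0.07 in trained and 0.31 in untrained mice, with 26 of 36 and 0 of 36 below 0. None of these markers passed. Of the markers of type 2 innate lymphoid cells and eosinophils none reached the filter, and their summed level was at most 0.47 RPKM in any trained library, with Areg and Epx at 0 in all 16.

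In the slow fibre list the mean log2 level relative to trained WT was between -1.18 and -0.51 in untrained WT libraries, between -1.03 and 0.01 in untrained KO libraries, and at -0.75, -1.06, -0.19 and -1.08 in trained KO libraries. The trained WT libraries stood at 0.27, -0.08, 0.10 and -0.29, so that WT 2 and WT 4, like all 4 trained KO libraries, lay within the range of the untrained ones, whose upper end was KO 3. These 4 WT libraries are also one side of any training comparison in WT mice, so the genotype difference in trained mice and the WT training difference are not separate observations.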

How the data were processed

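RNA was sequenced from gastrocnemius muscle of 16 mice, 4 in each of 4 groups, which the labels list as separate animals. The deposited values are RPKM per gene symbol, per the file headers, and the genome build mm10 is named in the submitters' processing notes. Which aligner and annotation were used, and whether counting used strand, is not given in the sources used here. Since RPKM are not counts, limma 3.58.1 (R 4.3.3, trend and robust) was fitted to log2(RPKM + 0.1) in all 16 libraries with 1 mean per group, for genes that reached 1 RPKM in 4 or more libraries, with Benjamini-Hochberg adjustment and a threshold of 0.05; the procedure was tested on simulated data. Standard errors and 95% intervals come from that fit. Whole reads were solved from the RPKM steps for 17402 of 17402 genes above 0. A gene length was accepted only if it brought the values to within 0.01 of a whole number, so the 100% found within that margin largely follows from the rule. The shortest length that fitted was kept, so that in genes with few values above 0 the reads are the fewest possible. These reads gave depth, floors of 3 reads and a voom alternative. The standard errors and intervals rest on the spread between libraries, while the floors rest on reads and cover counting error only.

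The genes named were, on and off chromosome 11 and in each direction, up to 12 with the largest difference among those past the threshold without overlap, or those with the smallest p up to 5, up to 4 members of each list by smallest p, and a set of IL-13 pathway, neighbour and regulator genes; others are marked where named. The members and lists were chosen with earlier results of these data known. Replicate numbers were not taken as pairing: deviations of same-numbered trained libraries correlated at 0.065, 0.055, 0.006 and -0.002. No pair of libraries agreed within sampling noise. Overlapping exons were read from GENCODE M21, which held 9608 of the tested symbols (94.5%) at the same place. No value column was left unused (0 columns). Alternatives were pseudocounts of 0.01 and 1, no filter, a filter at 5 RPKM, quantile normalization, library weights, voom, a replicate block, the compared groups alone, each library left out and, chosen after seeing the data, median centring and leaving out libraries for the overlap counts.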

Additional observations from a re-analysis of the deposited data

Results flagged for a closer look

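Of the 28 groups of 4 libraries read for a distant sample, 2 held one by Dixon's criterion at the 95% level (the gap to the next sample over the whole range), where chance gives about 1 in 20, or 1.4. Both were trained WT libraries numbered 1. Anxa6 stood at 81.1 RPKM there, with the next WT library at 71.1 (ratio 0.907), and without it the log2 difference was -0.45 (limma, adjusted p = 0.00566). Tnip1 stood at 13.4 RPKM, with the next at 10.8 (ratio 0.892), and without it the log2 difference was 0.56 (limma, adjusted p = 0.00157). The groups read were the trained KO and trained WT libraries of only some of the named genes. Distant samples in other genes were not counted. Ldhb, for example, was not among those read, and its trained WT libraries measured 244, 175, 169 and 166 RPKM.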

How the results depend on the processing

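The 9 genes that passed in trained mice became 3 when only the groups compared were fitted, 5 with a replicate block (Acsl6, Anxa6, Fhl1, Lyrm7 and Tnip1), and 2 to 9 when 1 trained library was left out. On chromosome 11 the 5 became 2 with only the groups compared and 2 to 6 with a library left out. The 4 elsewhere became 1 with no filter on low values, 1 with only the groups compared, 1 with the replicate block and 0 to 3 with a library left out. In untrained mice 5 became 3 with a filter at 5 RPKM, 3 with only the groups compared and 3 to 5 with a library left out, which was 3 for all but KO 2 and KO 4. The test of the difference between both states gave 0 genes, but 1 without a filter, 1 after quantile normalization and 0 to 2 with a library left out, the 2 being Myh2 and Prg4 without KO 3. The share of reads in listed genes differed by -2.73 to -0.229 percentage points with a library left out. Both pseudocounts, library weights and voom each called the same 9 genes. Quantile normalization also called 9, without Pon2 and Tecr and with Ndufa12 and S100a1. Median centring called 10, without Pon2 and with Ndufa12 and S100a1. Of 9 genes, Anxa6 passed in 18 of 18 alternatives, Lyrm7 in 17 of 17 that gave a value, and Pon2 and Tecr in 7 of 18. Among the 85 named genes with a value in each, the log2 difference changed sign for Uqcrb after quantile normalization (0.0005), for Ppargc1a without KO 2 (-0.032, up to 0.213 with another library left out), and for Il4ra without WT 2 (-0.075, up to 0.121) and without KO 2 (-0.023). The causes were not tested. Lyrm7 was low, at up to 3.52 RPKM, and Il13 was too low to be read at this depth.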

Other observations

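Further gene lists were read in trained mice, where the median of all genes was -0.05. Of 27 tested interferon-stimulated genes, 24 lay below 0 with a median log2 difference of -0.17, and none passed; the median ran from -0.25 without KO 3 to -0.09 without KO 1. Of 21 immediate early genes 16 lay below 0, with a median of -0.23 that was -0.07 without WT 1. The circadian clock genes had a median of 0.04 over 18 tested, the atrophy and FoxO genes -0.01 over 21, and the proteasome genes -0.05 over 46. Genes of insulin signalling and glucose uptake had a median of 0.01 over 19. Among them Insr, the insulin receptor, was higher in KO without overlap in both states, with a log2 difference of 0.13 in trained mice (limma, adjusted p = 0.311) and 0.13 in untrained mice.

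Adipocyte and Schwann cell markers had medians of 0.74 and 0.53 in untrained mice and -0.10 and -0.08 in trained mice, and no gene of either list passed. Myh4 took 5.59% ± 0.366 of all reads in trained KO and 5.05% ± 0.42 in trained WT libraries (SD, n = 4; two-sided exact permutation p = 0.114).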
